A study of Caenorhabditis elegans with 161 samples.

Results

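C-type lectin genes made up 253 of the 20687 gene rows counted in whole embryos of the nematode Caenorhabditis elegans. A row was taken as a member where its sequence name matched a RefSeq locus tag whose symbol is clec followed by a number. RefSeq holds 264 such symbols, the 11 without a row are pseudogenes, and 239 of the 253 members are annotated as protein coding. The study followed 20 strains, namely N2, the laboratory wild type, and 19 numbered mutation-accumulation lines. Such a line is a single lineage passed through repeated bottlenecks, in which selection removes few of the mutations that arise. Per the labels, embryos were cut out of adults, washed in bleach, collected at the 4-cell stage, kept at 20°C and frozen at 0, 60, 180, 270, 440, 650 or 830 min. Each strain gave 1 library of 10 pooled embryos per stage. A second set held 3 further libraries of strain 522 at each of 7 time points, called A to G here and set beside the 7 stages in order, since for 18 of the 21 the labelled time goes against the title. In the strain set p-values measure the spread between libraries of different lines, with 1 library per line and stage. The submitters name the strain 522 libraries as biological repeats, but nothing in the labels says that their pools came from separate cultures. In both sets part of the spread between libraries may be technical.

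C-type lectin proteins share a domain that in many animals binds sugars, often with the help of calcium. In C. elegans the family is large, many of its genes are expressed in the gut, and many respond to bacteria in feeding larvae and adults. The embryo inherits transcripts from the mother, destroys much of that store early, and then builds its organs and its cuticle from its own transcripts before it hatches. For most members the function of the protein is not established, and the names record only the domain.

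The strain libraries held 5653 to 525902 counts with a median of 57199, and the repeats 58543 to 623958 with a median of 219346. Levels are counts scaled to a common library total, as CPM, either per library or pooled over the libraries of a stage. A stage with 0 pooled counts in the strains allows a level of up to 1.45 to 1.90 CPM, from 3 counts over its 20 libraries. Intervals and such floors cover counting error only. CEL-Seq counts the 3' ends of transcripts, so levels of different genes can be set side by side without division by length. Stage labels were checked on markers. Pooled over the strains, mex-5, a maternal germline transcript, stood at 15.5 CPM at 830 min and 1493 CPM at 0 min. The epidermal collagen dpy-7 reached 1673 CPM at 440 min, and act-5, the actin of the gut lumen, reached 2891 CPM at 830 min. Other markers did not all follow these courses. pgl-1 fell much as mex-5 did, but glh-1 only went from 52.0 CPM at 0 min to 20.8 CPM at 830 min. The epidermal markers elt-1 and lin-26 peaked before 440 min, at 285 and 327 CPM. Of the gut markers, ifb-2, ifc-2 and vha-6 also peaked at 830 min. elt-2 peaked at 440 min with 83.6 CPM, and elt-7 and ges-1 peaked earlier, at 119 and 26.9 CPM. In bulk embryos, fewer cells of a type and less RNA per cell cannot be told apart.

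Of the 253 members, 181 had at least 1 count in the 140 strain libraries and 166 in the repeats, while 54 had 0 counts in every library. Those with at least 20 counts over the strain libraries, 64 genes, are called detected, and each was placed by the stage of its highest pooled CPM. The other members were 117 with 1 to 19 counts and 72 with 0 in the strains. Just outside the limit lay clec-36 with 15 counts, clec-43 with 17, clec-227 with 18, and clec-86 and clec-184 with 19 each. Just inside lay clec-166 with 21, clec-42 with 22, clec-26 with 24, clec-157 with 26 and clec-8 with 27. By this placing 6 detected genes peaked at 0 or 60 min (early), 8 at 180 to 440 min (mid-course) and 50 at 650 or 830 min (late). The strain counts set the classes, so levels within them are a description. In the repeats, which did not enter the placing, 60 of the 64 genes fell in the same class and 51 had their peak at the matching time point. The 4 that did not were clec-1, clec-8, clec-83 and clec-118.

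**Figure D1:**
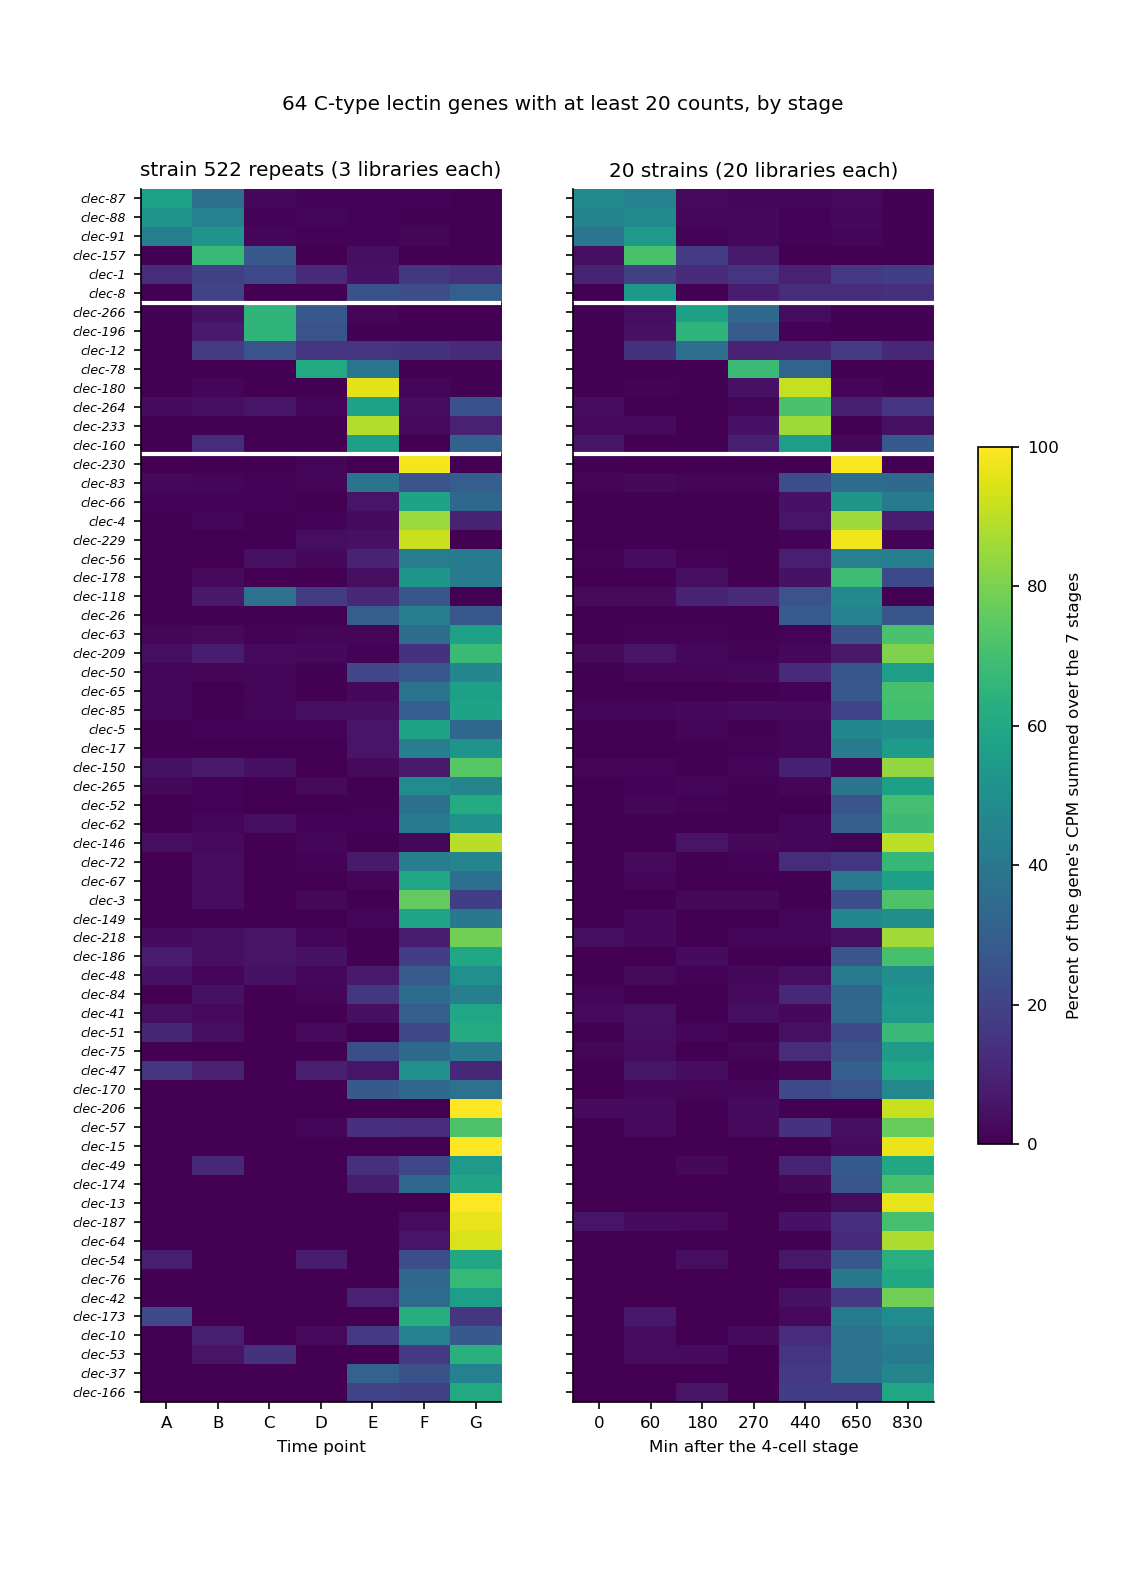
Share of each gene's level at each stage for the 64 detected C-type lectin genes, in percent of its pooled CPM summed over the 7 stages (colour). The left panel shows the strain 522 repeats (A to G, 3 libraries each) and the right panel the 20 strains (min after the 4-cell stage). White lines part the 6 early, 8 mid-course and 50 late genes, ordered by peak stage and then by level. Most rows are bright in their last 2 columns.

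With clec-87 counted, the family took its largest share of all counts early. Without that gene the strains had shares of 0.266% and 0.337% at 0 and 60 min, 0.394% at 180 min and 0.350% at 830 min, so the peak lay at 180 min, and in the repeats it was 0.225% at A, 0.445% at C and 0.282% at G. With it, and pooled over the strains, the family's share over the 7 stages was 0.5999%, 0.646%, 0.411%, 0.242%, 0.106%, 0.241% and 0.355%. In the same order 39, 70, 59, 64, 98, 122 and 133 members had a count. At 0 min the 6 early genes held 5917 of the family's 5999 pooled CPM. At 180 min the 8 mid-course genes held 3743 of 4106 CPM, and at 830 min the 50 late genes held 3290 of 3546 CPM. The repeats gave 0.494% at A, 0.435% at B, 0.456% at C, 0.197% at D, 0.146% at E, 0.226% at F and 0.283% at G, lowest at E as the strains were at 440 min. Single libraries of the strains ran from 674 to 1638 CPM at 440 min and from 4727 to 10265 CPM at 0 min, so the groups at those stages did not overlap.

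A handful of genes carried the early and the mid-course share. The early share was nearly all clec-87, clec-88 and clec-91. In the 20 strain libraries, clec-87 lay between 2176 and 7635 CPM at 0 min with a median of 4265, and between 1851 and 5774 CPM at 60 min with a median of 3354. Its values at 180 min ran from 37.0 to 673 CPM with a median of 125, so every strain was lower at 180 min than any strain at 60 min. In the repeats clec-87 read 3030, 2487 and 2803 CPM at A and 1649, 2255 and 1771 CPM at B. At C it read 113, 107 and 83.9 CPM. clec-88 had medians of 2003 CPM at 0 min and 2035 CPM at 60 min, and 65.2 CPM at 180 min, where 3 libraries had no count. clec-91, the lowest of these genes, had medians of 563, 839 and 16.03 CPM at these stages. Both also kept their 60 and 180 min libraries apart.

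**Figure D2:**
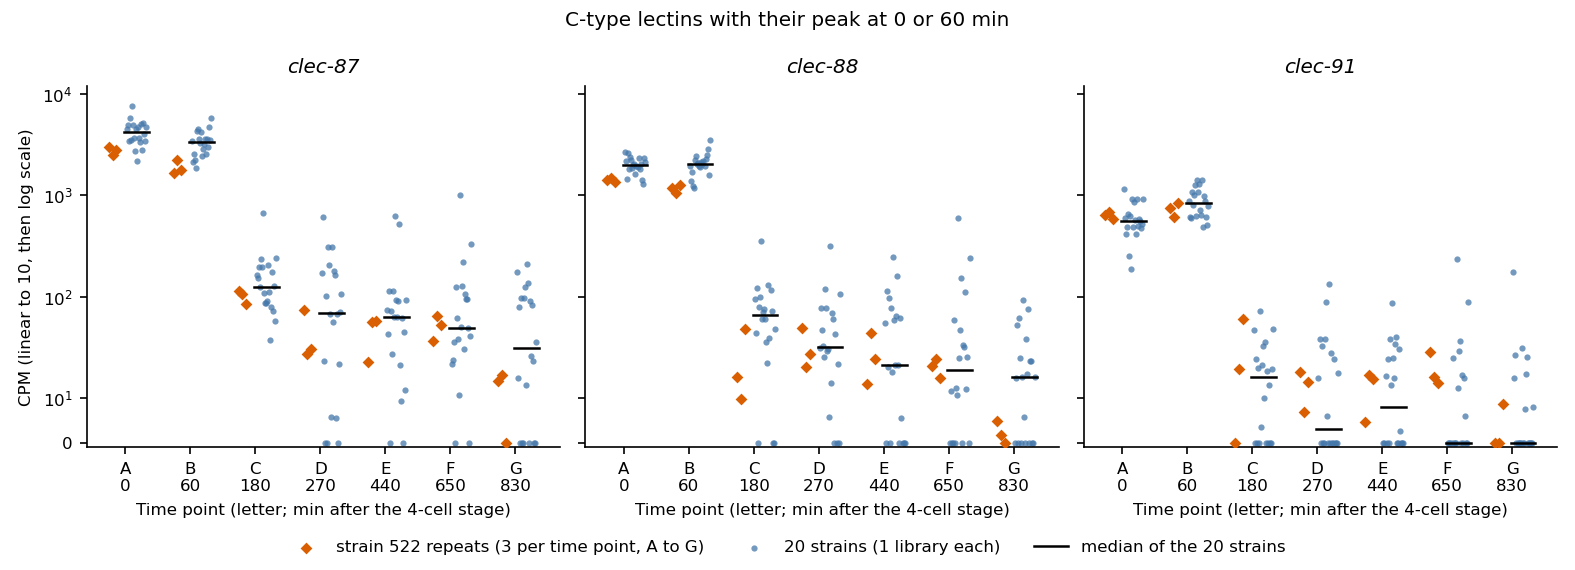
Levels of clec-87, clec-88 and clec-91 in CPM (linear to 10, then log scale) by time point. Orange diamonds are the 3 strain 522 repeats at A to G, blue points the 20 strain libraries at the matching stage, and black bars the median of the strains. Levels at 0 and 60 min lie above those at 180 min in every library, and strain 550 gives the highest points at 650 min.

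Differences between adjacent stages were tested with edgeR's quasi-likelihood test over all genes that passed its filter, with Benjamini-Hochberg adjustment. Calls required a 2-fold change together with an adjusted p below 0.05, and log2 fold changes are later over earlier with their standard error. In both sets a gene can pass this filter through the stage where it is high alone, so counts of called lectins are a description. Between 60 and 0 min 3 lectins could be tested in the strains and 0 were called, against 31.8% of all genes tested and 9.9% called as higher. At an unadjusted p under 0.05 the count was 2, and DESeq2 called 0. clec-87 differed by -0.33 ± 0.13 (adjusted p = 0.0168) and clec-91 by 0.49 ± 0.16 (adjusted p = 0.00519), both under 2-fold, while clec-88 differed by 0.04 ± 0.11 (adjusted p = 0.772). clec-91 was higher at 60 min in 16 of 20 strains, and clec-87 was lower in 13 of 20. The difference of clec-87 was -0.04 ± 0.12 with a filter of 20 counts (adjusted p = 0.784) and turned to 0.19 in the first 6 strains of the table, and that of clec-88 turned to -0.05 under the other scaling of edgeR. Between 180 and 60 min all 5 lectins tested were called, against 45.2% of genes, of which 2 were higher (23% of genes) and 3 lower (22.2%). The falls were -4.31 ± 0.22 for clec-87 (adjusted p = 2.66e-25), -4.57 ± 0.22 for clec-88 (5.91e-26) and -5.33 ± 0.25 for clec-91 (1.88e-26), each in 20 of 20 strains. In the repeats all 5 lectins tested between C and B were called as well, against 47.3% of genes (23.2% higher and 24.1% lower), with falls of -4.08 ± 0.30, -5.56 ± 0.36 and -4.93 ± 0.38 for the same genes.

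After 180 min these transcripts stayed at a few percent of their early level in the strains, and the repeats at G were lower still. Pooled over the strains, clec-87 held 4.93%, 3.93%, 2.61%, 4.96% and 1.42% of its early peak over the last 5 stages in order. Most of the value at 650 min came from the library of strain 550, which held 191 of the 342 counts of clec-87 at 998 CPM (95% exact interval 861 to 1149). Without it the pooled level at 650 min was 80.7 CPM in place of 166 CPM. At 440 min strain 550 held 66 of 173 counts, and the pooled level without it was 56.9 CPM in place of 87.1 CPM. In the repeats clec-87 held 0.522% of its early peak at G, from 12 counts, while clec-88 and clec-91 had 2 and 1 counts there, under the floor of 3. The same library read 601 CPM for clec-88 and 235.02 CPM for clec-91. It also read 1682 CPM for the summed eggshell genes, which are expressed in the adult germline. That was the highest value among the strain libraries at 650 min. The summed vitellogenins, the yolk genes of the adult gut, read 1802 CPM in it. That was not the highest, since another strain library at 650 min read 3166 CPM. The other libraries at 650 min reached up to 328 CPM for clec-87. With a weaker filter of 20 counts, clec-87, clec-88 and clec-91 fell between 830 and 650 min by -1.37 ± 0.41, -1.59 ± 0.49 and -1.79 ± 0.57 (adjusted p = 0.00625, 0.00770 and 0.0110). Without strain 550, an alternative chosen after the data were seen, these became -0.68 ± 0.37, -0.78 ± 0.46 and -0.80 ± 0.54, and none was called (adjusted p = 0.179, 0.214 and 0.294). With strain as a block clec-91 was not called either (adjusted p = 0.0660).

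In the repeats clec-87 fell between G and F, with 14.8, 16.8 and 0 CPM at G and 36.1, 64.7 and 52.6 CPM at F (-1.84 ± 0.45, adjusted p = 0.00114). All 6 vitellogenins and 5 of 5 eggshell genes tested also fell there, against 13.4% of all genes. Between F and E 5 of 6 and 4 of 5 had risen, against 25.3% of genes. The vitellogenins were not highest at F, with 4457, 4183, 3075 and 2035 pooled CPM at A to D and 1928 pooled CPM at F. The summed vitellogenins were 4.95 to 60.2 CPM at G and 1797 to 2750 CPM at F, and the summed eggshell genes 54.4 to 77.4 CPM at G and 505 to 938 CPM at F. None of these genes was at 0 at F. The part of this in the fall of clec-87 was not tested. At E clec-87 read 22.8, 56.5 and 57.9 CPM, and between F and E it was not called.

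The other early genes were scarce and were not at their peak at 0 min. clec-157 had 0.585 pooled CPM at 0 min, 11.4 pooled CPM at 60 min and 0 counts from 440 min on, and 15.6 CPM at B in the repeats. clec-8 had 0 counts at 0 min and 8.24 pooled CPM at 60 min, and did not repeat that peak, with 2.40 CPM at B. clec-1 stood between 4.03 and 8.24 CPM at all 7 stages and between 4.88 and 22.6 CPM in the repeats, so its place in a class carries little.

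The mid-course share was carried by clec-266 and clec-196 at 180 and 270 min and by clec-180 at 440 min. clec-266 had medians of 12.7, 135, 2320, 1496, 123, 15.9 and 13.7 CPM over the 7 stages, and clec-196 of 0, 72.8, 1375, 547, 18.75, 0 and 0 CPM. At 180 min the lowest strain still read 1441 CPM for clec-266 and 893 CPM for clec-196. In the repeats both genes were also highest at C and next highest at D, with clec-266 at 2202, 3209 and 3534 CPM at C and 1086, 1918 and 1148 CPM at D. Between 180 and 60 min clec-266 rose by 3.99 ± 0.19 and clec-196 by 3.81 ± 0.20 (adjusted p = 2.25e-26 and 2.23e-24), in 20 of 20 strains each. Their first increase came earlier, and with the weaker filter clec-266 rose between 60 and 0 min by 3.20 ± 0.31 (adjusted p = 5.92e-15). In the repeats both rose between B and A, 2 of the 5 lectins tested, against 41.1% of genes and 17.5% called as higher. clec-266 read 208, 171 and 217 CPM at B and 14.1, 28.5 and 19.5 CPM at A (3.24 ± 0.32, adjusted p = 5.53e-09).

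clec-266 and clec-196 both declined after 180 min. Between 270 and 180 min 1 of 2 lectins tested was called, against 14.8% of genes, with 7.63% higher and 7.21% lower. This was clec-196, which fell by -1.19 ± 0.14 (adjusted p = 4.77e-10) and in 20 of 20 strains, while clec-266 fell short of 2-fold at -0.70 ± 0.12 (adjusted p = 2.78e-06), lower in 18 of 20. Between 440 and 270 min both were called, 2 of 2 against 40.7% of genes (20.1% lower), at -4.60 ± 0.25 for clec-196 and -3.40 ± 0.20 for clec-266 (adjusted p = 2.58e-21 and 4.02e-20). In the repeats 3 of 3 lectins tested fell between D and C, against 19.1% of genes (7.69% lower). These were clec-196 at -1.39 ± 0.22 (adjusted p = 1.10e-04), clec-266 at -1.13 ± 0.34 (0.0182) and clec-87 at -1.15 ± 0.40 (0.0363). The call of clec-87 was lost under DESeq2 (adjusted p = 0.0663) and when any 1 library of C, or library 2 or 3 of D, was left out (adjusted p up to 0.194). That of clec-266 was lost without library 2 or 3 of C or library 1 or 3 of D (adjusted p up to 0.102).

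**Figure D3:**
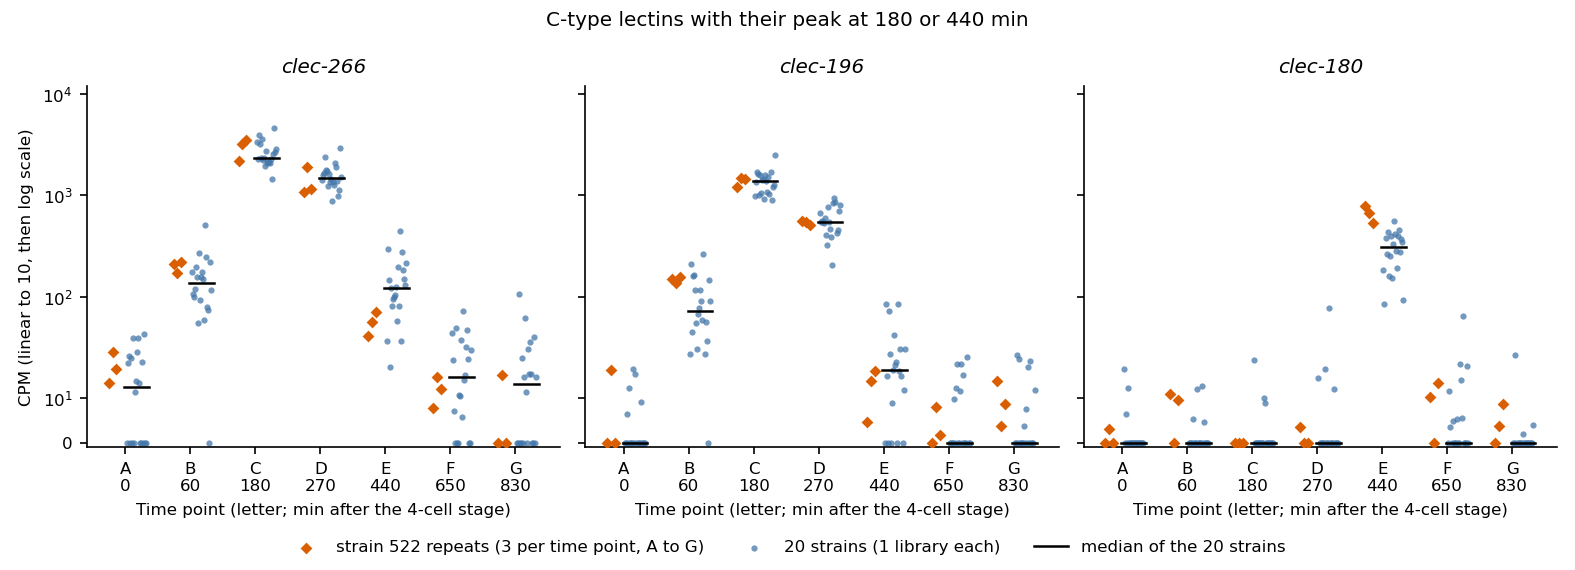
Levels of clec-266, clec-196 and clec-180 in CPM (linear to 10, then log scale) by time point, with the 3 strain 522 repeats as orange diamonds, the 20 strain libraries as blue points and their median as a black bar. clec-266 and clec-196 stand highest at 180 min and lower at 270 min, and clec-180 is high at 440 min with no overlap with the stages on either side.

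clec-180 was a pulse of a single stage. At 440 min the 20 strains read 85.0 to 555 CPM with a median of 307. At 270 min 16 of 20 libraries had no count, and 27 of its 31 counts lay in the library of strain 555, at 76.8 CPM (95% exact interval 50.6 to 112). At 650 min 11 libraries had none and the highest read 63.9 CPM. The stage groups on either side did not overlap with 440 min. In the repeats clec-180 had 789, 674 and 533 CPM at E and 3.64, 0 and 0 CPM at D, a change of 8.96 ± 0.44 (adjusted p = 8.99e-13). From 670 and 2 counts the ratio was 432, with a counting interval of 119 to 3572. It fell by -5.16 ± 0.31 between 650 and 440 min in the strains and by -5.67 ± 0.34 between F and E in the repeats (adjusted p = 3.49e-20 and 3.61e-14). dpy-7 also peaked at 440 min, with 331, 1673 and 24.7 pooled CPM at 270, 440 and 650 min, but it was already at 432 CPM at D in the repeats, where clec-180 had 2 counts. Other genes with a peak at 440 min were less abundant, with pooled levels of 24.7 CPM for clec-264, 20.7 CPM for clec-233 and 11.6 CPM for clec-160. In the repeats these read 32.2, 34.1 and 10.7 CPM at E, again their highest time point. clec-12 and clec-78, the remaining members of the class, stayed at or under 15.97 pooled CPM in the strains.

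The late class was the broadest. Its 50 genes had 5.33 to 881 pooled CPM at their peak with a median of 24.3, and a median of 90.7% of their summed level lay at 650 and 830 min. Of the 50, 9 peaked at 650 min and 41 at 830 min, and 48 were late in the repeats too. clec-63 led. At 440 min it read 0 to 92.1 CPM with a median of 9.37, at 650 min 109 to 577 CPM with a median of 348, and at 830 min 497 to 1341 CPM with a median of 940. Each strain was higher at 830 than at 650 min and higher at 650 than at 440 min. In the repeats clec-63 read 31.9, 6.28 and 3.05 CPM at E, 363, 267 and 303 CPM at F and 401, 549 and 593 CPM at G. clec-209, the next most abundant, had a median of 24.9 CPM at 650 min and 531 CPM at 830 min, where the lowest strain read 182 CPM and no longer overlapped with 650 min.

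Between 650 and 440 min 2 of 2 lectins tested with the main filter were called, against 44.2% of genes (21% higher and 23.2% lower). clec-63 rose by 4.84 ± 0.29 (adjusted p = 2.80e-20), and clec-180 fell as given above. Between 830 and 650 min 2 of 3 were called, against 23.5% (9.99% higher). clec-63 rose by 1.37 ± 0.14 (adjusted p = 9.99e-12) and clec-209 by 3.41 ± 0.31 (adjusted p = 2.60e-13), in 20 of 20 strains each. The third, clec-83, differed by -0.18 ± 0.20 (adjusted p = 0.484).

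**Figure D4:**
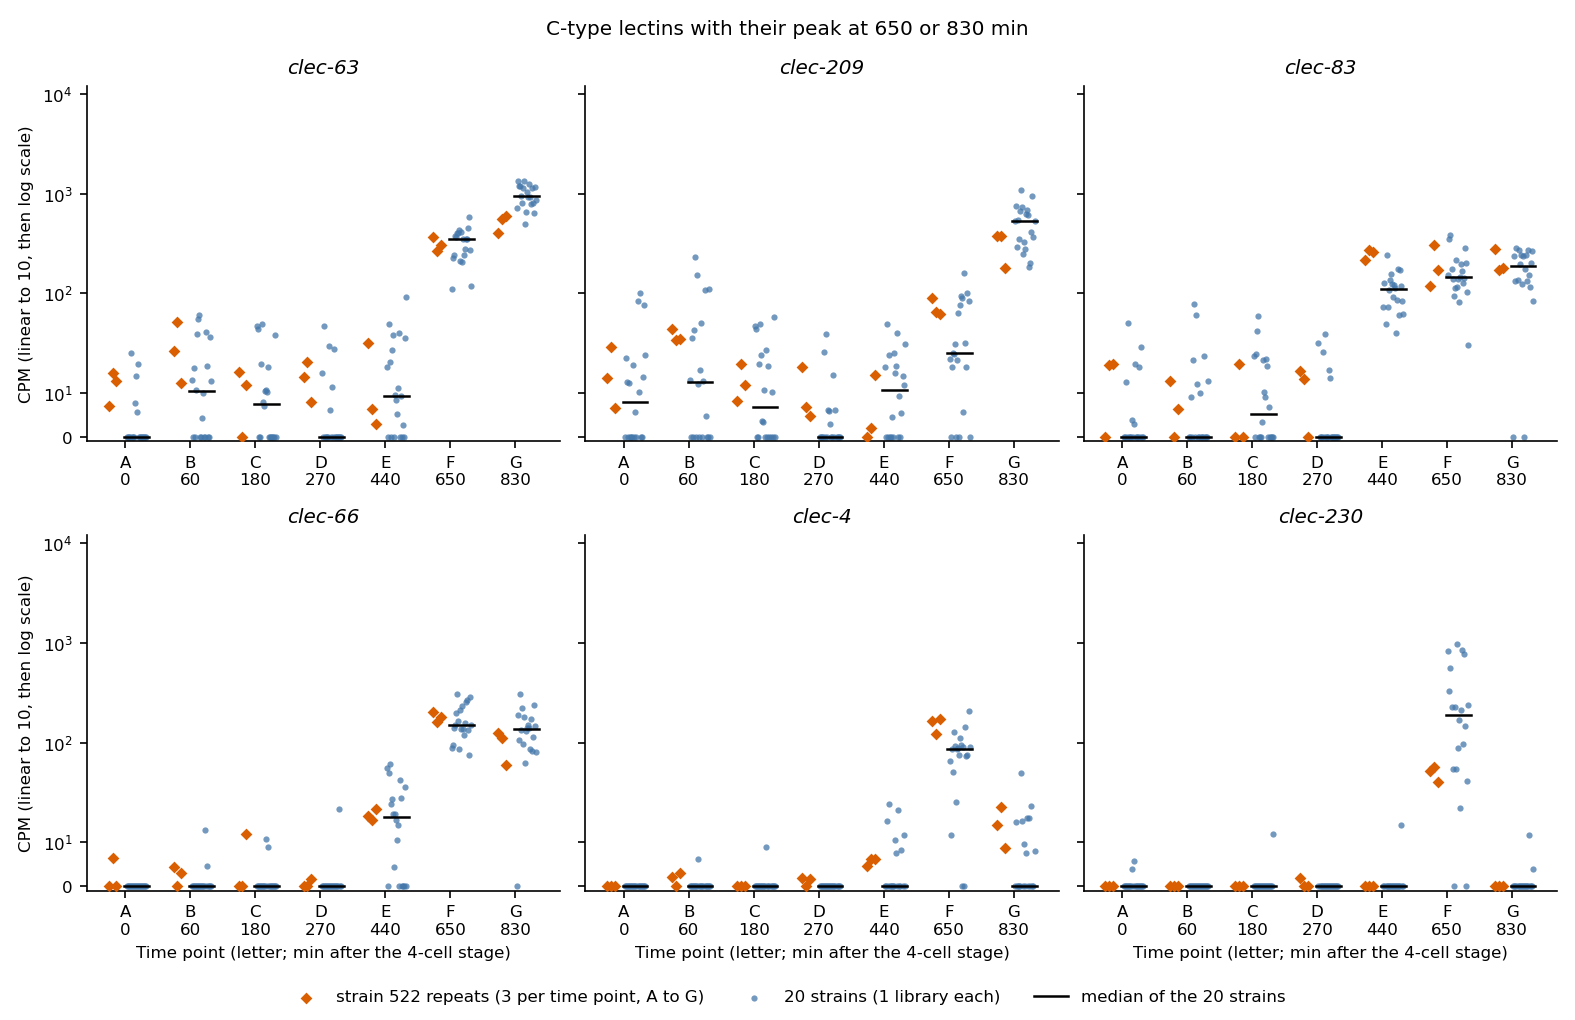
Levels of 6 late C-type lectin genes in CPM (linear to 10, then log scale) by time point, with the 3 strain 522 repeats as orange diamonds, the 20 strain libraries as blue points and their median as a black bar. clec-63 and clec-209 are highest at 830 min, and clec-83 and clec-66 are seen at both late stages. clec-4 is seen mostly at 650 min and clec-230 almost there alone. clec-230 spreads from 0 to 987 CPM over the strains.

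The deeper repeats let more late genes be tested. Between E and D 5 of 7 lectins were called, against 48.2% of genes. Higher were 3 (27.7% of genes), namely clec-180, clec-83 and clec-50, and lower were 2 (20.5%), with clec-196 at -4.85 ± 0.29 and clec-266 at -4.15 ± 0.33 (adjusted p = 1.10e-11 and 7.06e-10). clec-83 read 214, 268 and 259 CPM at E and 16.4, 13.6 and 0 CPM at D (5.32 ± 0.39, adjusted p = 1.93e-10), and the strains gave the same onset with medians of 110 CPM at 440 min and 0 CPM at 270 min. After its onset clec-83 had strain medians of 144 and 185 CPM at 650 and 830 min. With a filter of 20 counts its change between 650 and 440 min was 1.01 ± 0.22 (adjusted p = 8.55e-05), just past 2-fold, while its pooled level was 191 CPM at 650 min and 127 CPM at 440 min. clec-50 read 27.4, 62.8 and 27.4 CPM at E and 0, 6.802 and 1.60 CPM at D (4.99 ± 0.62, adjusted p = 5.02e-07). Between F and E 12 of 15 lectins tested were called, 10 higher and 2 lower, against 46.7% of genes (25.3% higher and 21.4% lower). Some passed the filter through F alone, such as clec-265 and clec-230 with 0 CPM at E, so these counts support nothing further. The largest rises were clec-265, clec-230, clec-52, clec-149 and clec-63. clec-265 had 77 counts at F and 0 at E, so it was at least 24.3-fold higher by a floor of 3 counts over the group. clec-52 read 54.1, 64.7 and 54.3 CPM at F and 0, 2.09 and 0 CPM at E (5.60 ± 0.62, adjusted p = 8.42e-09). clec-149 rose by 5.36 ± 0.66 and clec-63 by 5.08 ± 0.35 (adjusted p = 5.89e-08 and 8.20e-13). The other rises were clec-4, clec-5, clec-65, clec-66 and clec-209, from 3.52 to 4.93 on the log2 scale. clec-180 fell, as did clec-266 by -2.11 ± 0.41 (adjusted p = 6.93e-05).

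Between G and F 6 of 17 lectins tested in the repeats were called, 3 in each direction, against 23.6% of genes (10.3% higher and 13.4% lower). The rises were clec-150, clec-218 and clec-209. clec-150 read 114, 123 and 51.6 CPM at G and 12.9, 8.09 and 10.51 CPM at F (3.18 ± 0.41, adjusted p = 2.15e-08). In the strains clec-150 had a median of 71.5 CPM at 830 min, while 17 of 20 libraries at 650 min had no count. clec-218 read 44.5, 44.8 and 60.2 CPM at G and 2.58, 8.09 and 5.26 CPM at F (3.18 ± 0.52, adjusted p = 2.99e-06), and clec-209 rose by 2.12 ± 0.25 (adjusted p = 2.17e-09). clec-146, too scarce for the main filter in the strains, had 94 counts at 830 min and 1 at 650 min there, a ratio of 104 with a counting interval of 18.1 to 4135. Some of the late genes have known ties to defence in feeding worms. clec-4 has been linked to the outcome of infection with Bacillus thuringiensis and clec-85 is a target of the p38 pathway of the gut. clec-85 had 135 pooled CPM at 830 min and 38.8 CPM at 650 min in the strains.

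A filter of 20 counts over the libraries compared, planned as an alternative, brought in the scarcer members of the strain set. Here 4 of 9 lectins tested were called between 60 and 0 min (4 higher, against 41.2% of all genes called and 21.4% higher), 7 of 11 between 180 and 60 min (2 higher, against 45.8% and 22.6%), 4 of 12 between 270 and 180 min (2 higher, against 20.2% and 13.1%) and 13 of 18 between 440 and 270 min (11 higher, against 44.7% and 29.4%). Between 650 and 440 min 36 of 44 were called, 29 higher and 7 lower, against 40.9% of all genes (26.3% higher and 14.6% lower). Between 830 and 650 min 26 of 55 were called, 18 higher and 8 lower, against 24.5% (10.7% higher and 13.8% lower). Many of these genes pass the filter through the stage where they are high, so the counts describe them and support nothing further. With strain as a block the 6 counts were 2, 7, 3, 13, 32 and 24 of as many tested, against 40.4%, 44.7%, 18.2%, 43%, 39.9% and 21.7% of genes. Without strain 550 they were 4 of 8, 7 of 9, 4 of 11, 12 of 16, 30 of 38 and 22 of 54, with 4 in place of 8 lower between 830 and 650 min. The shares of all genes were then 42.2%, 47.2%, 19.3%, 46.2%, 41.4% and 23.8%. At this filter the 2 scalings offered by edgeR differed by up to 0.35 on the log2 scale, at 60 against 0 min, where TMM gave the higher fold changes. Taken over all 7 stages, 8 of 8 lectins had a stage effect in the strains, against 99.7% of genes, and 19 of 19 in the repeats, against 97.4%, so nearly every gene tested had one.

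Within the late class clec-230 and clec-229 were seen almost at 650 min alone, and clec-4 mostly there. In the strains 98.9%, 97.8% and 85.3% of their summed pooled CPM lay at that stage. Over the 20 strains clec-230 had 745 counts at 650 min and 2 at 830 min, 1 at 440 min and 4 at the 4 earlier stages together. clec-229 had 95 counts at 650 min and 1 each at 440 and 830 min. clec-4 read 0 to 206 CPM at 650 min with a median of 86.3 and 0 to 48.9 CPM at 830 min with a median of 0. With the filter of 20 counts, clec-230 rose by 7.69 ± 0.60 between 650 and 440 min and fell by -7.08 ± 0.60 between 830 and 650 min (adjusted p = 2.55e-18 and 7.85e-17). In the repeats it read 51.6, 56.6 and 40.3 CPM at F and 0 in each library at E and at G. From 50 counts at F it was at least 15.8-fold higher than at E and at least 13.1-fold lower at G, by 3 counts over a group. clec-4 in the repeats read 165, 121 and 172 CPM at F and 4.56, 6.28 and 6.10 CPM at E, and 14.8, 22.4 and 8.60 CPM at G (4.93 ± 0.37 between F and E and -3.18 ± 0.34 between G and F, adjusted p = 3.07e-12 and 2.00e-10).

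The level of clec-230 at 650 min differed between libraries beyond counting error, and each strain has 1 library there, so strain, staging and preparation cannot be told apart. It read 987 CPM in strain 550 (95% exact interval 851 to 1138), 851 CPM in 570, 831 CPM in 502 and 774 CPM in 575. Strain 516 read 561 CPM and 508 read 328 CPM, and the other libraries with a count lay between 21.8 and 239 CPM. Strains 529 and 597 had no count. The first 6 strains of the table averaged 642 CPM and the last 14 averaged 147 CPM, and for clec-229 the means were 102 and 14.5 CPM. The SD of clec-230 over the 20 libraries was 5.30 times that of counting alone, the largest ratio among the 64 detected genes, whose median was 1.15. Strain 522 read 54.3 CPM in the strain set, next to the 40.3 to 56.6 CPM of its repeats. clec-229 read 198 CPM in strain 550 and 197 CPM in strain 502, up to 79.0 CPM in the others, and no count in 6 libraries, those of 529 and 597 among them.

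**Figure D5:**
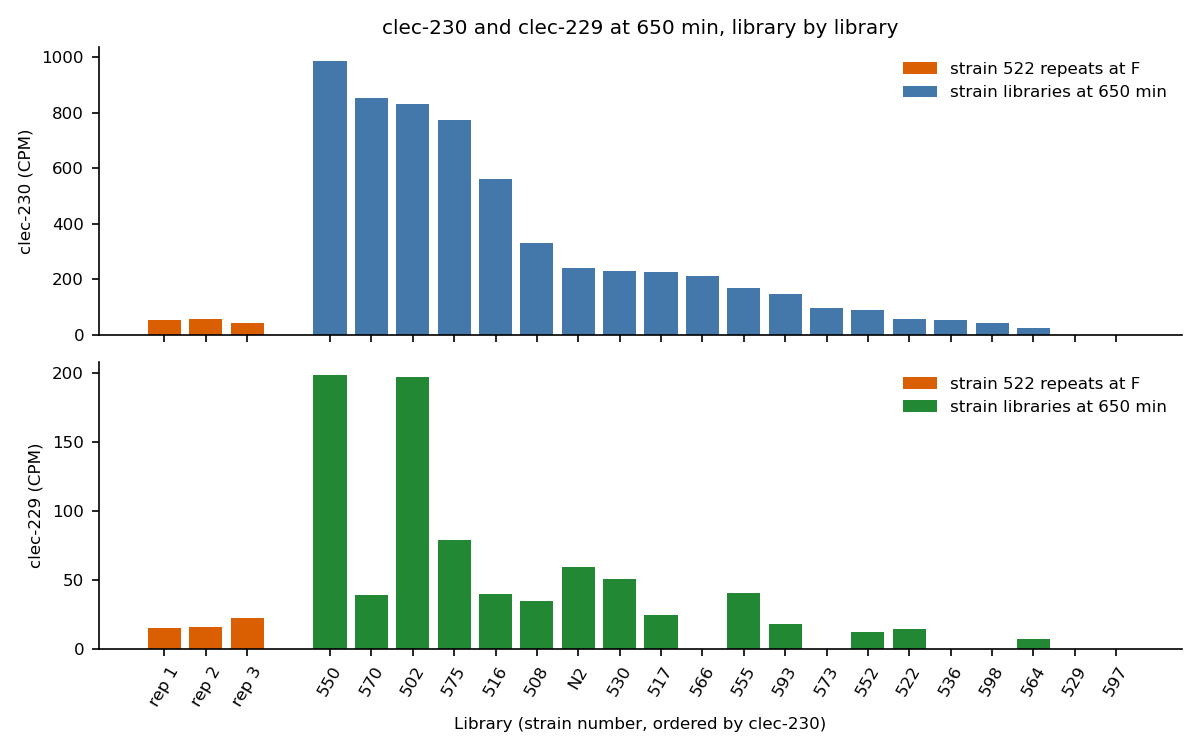
Levels of clec-230 (top) and clec-229 (bottom) in CPM in each library at 650 min, with bars from 0. Orange bars are the 3 strain 522 repeats at F, and the other bars are the 20 strain libraries, ordered by clec-230. clec-230 spans 0 to 987 CPM over the strains, and the 2 libraries without it also lack clec-229.

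A test of strain over the whole course, with stage as a covariate, called 4 of 8 lectins, against 54.8% of all genes tested. These were clec-91 (adjusted p = 3.39e-07), clec-88 (3.50e-04), clec-196 (0.00161) and clec-87 (0.00163). On simulated data this test called 2.92% of unchanged genes, more than its threshold allows, so these adjusted p-values may be too small. Without strain 550, left out after the data were seen, 3 of 8 lectins were called, against 45.1% of genes, and clec-87 was not. The test was also fitted to parts of the table, its first 6 strains with 42 libraries and its last 14 with 98. Fewer strains and libraries give less power, so these counts cannot be set against those of all 20 strains. Fitted to the first 6 strains of the table (550, 570, 502, 555, N2 and 575), the test called 0 of 10 lectins and 0.833% of genes, with 1 lectin at an unadjusted p under 0.05. Fitted to its last 14 strains it called 0 of 8 lectins and 8.27% of genes, with 0 at an unadjusted p under 0.05. The labels name no batch that divides these strains, so strain and any difference in preparation between the blocks cannot be told apart. The first 6 had a mean of 1131 CPM of clec-91 at 60 min and the last 14 a mean of 779 CPM. For clec-87 at 0 min the means were 3376 and 4610 CPM, the opposite order. With the filter of 20 counts the strain test called 26 of 64 lectins, against 45% of genes. Within the last 14 strains alone it called 4 of 54 lectins, against 9.65% of genes. Among these was clec-230, of whose 752 counts 745 lay at 650 min, so its test rests on 1 library per strain. The first 6 and last 14 were set apart after the data were seen.

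The repeats and the strains were also compared with each other. At the peak stage of each detected gene, the pooled level in the repeats was 0.128 to 2.33 times that in the strains, with a median of 0.918. The strains set that stage by their own highest level, which by itself tends to lower these ratios. clec-180 had 654 CPM in the repeats and 342 CPM in the strains, and clec-4 had 164 and 85.8 CPM. clec-63 had 520 CPM in the repeats and 881 CPM in the strains, and clec-230 46.2 and 361 CPM, while the strain 522 library of the strain set read 54.3 CPM for clec-230. These ratios of levels were not tested. A test of whether the change between adjacent time points differed between the sets called 0 lectins in all 6 comparisons, which covered 3 to 15 lectins each, with edgeR's quasi-likelihood test. At an unadjusted p under 0.05 there were 4, and 0.657% of genes were called between F and E and 0 in the other comparisons. The smallest p was that of clec-180 between E and D, where the repeats rose by 3.87 more on the log2 scale (adjusted p = 0.0964).

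Members often stand side by side in the genome, by the order of genes in RefSeq. Of all 253, 125 have another member as a direct neighbour, and so do 33 of the 64 detected genes. That was 2 of the 6 early, 0 of the 8 mid-course and 31 of the 50 late genes. Among the 11 pairs of neighbours that were both detected, 10 shared their class and 6 their peak stage. Those 10 pairs were late and those 6 peaked at 830 min. Of the 64 detected genes, 50 were late and 41 peaked at 830 min, so most pairs would share a class wherever they lay. A link between position and class was not tested. A run from clec-62 to clec-66 on chromosome II was late throughout, with peaks at 830 min except for clec-66 at 650 min. The pair that did not share its class was clec-4 and clec-8. Detected genes lay on all chromosomes, 19 each on IV and V, 12 on II, 7 on I, 5 on III and 2 on X, against 57, 91, 51, 36, 15 and 3 of all members. Neighbours can share sequence, and clec-13 and clec-15 had equal counts in 8 of the 11 libraries that held a count of either, so their separate levels are uncertain. Exons of clec-87, clec-91, clec-266, clec-264, clec-83, clec-3 and clec-51 overlap a coding gene on the other strand in the WBcel235 annotation, and those of clec-88 and clec-85 overlap one on their own strand. The use of strand in counting is not given in the sources used here, so reads of such pairs may be mixed.

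In the repeats, called members of other families of sugar-binding and gut proteins were mostly higher between E and D and between F and E. Between G and F 6 of 9 saposin-like genes rose, but 0 of 11 galectins, 0 of 6 lysozymes and 0 of 8 gut structure genes. Some genes rose before E. In the strains spp-10, a saposin-like gene, rose by 3.63 ± 0.20 between 180 and 60 min (adjusted p = 5.85e-24). Between D and C in the repeats 2 of 3 gut structure genes rose, against 11.4% of all genes. Of all genes tested in the repeats, 27.7% were called higher and 20.5% lower between E and D. Between F and E these shares were 25.3% and 21.4%, and between G and F 10.3% and 13.4%. Of the 12 galectins, the other lectin family of the worm, 7 of 8 tested rose between E and D in the repeats and 7 of 10 between F and E, with 0 falls. Examples were lec-5 (4.94 between E and D, adjusted p = 1.02e-10) and lec-10 (3.60 between F and E, adjusted p = 4.16e-13). Unlike that of the C-type lectins, the summed level of the galectins had no early peak. In the strains it was 422, 387, 278, 258, 1899, 6821 and 6771 pooled CPM over the 7 stages, and the difference between the families was not tested. Single galectins can differ, and between B and A in the repeats 1 of 3 tested fell, against 23.7% of genes. Of the lysozymes, enzymes that cut bacterial walls, 3 of 4 tested rose between E and D and 6 of 6 between F and E, and 2 of 6 fell between G and F. lys-8 rose by 4.66 between E and D (adjusted p = 3.46e-09) and lys-2 by 4.54 between F and E (4.92e-12). Of the saposin-like proteins, 7 of 9 rose and 2 fell between E and D, and 5 of 11 rose and 4 fell between F and E. Among them spp-13 and spp-7 were high at E alone, as clec-180 was. spp-7 changed by 7.10 between E and D and -8.18 between F and E (adjusted p = 2.70e-10 and 6.01e-10), and spp-13 by 10.30 between E and D and -9.75 between F and E (adjusted p = 7.16e-12 and 4.31e-13). Of the gut structure genes, 5 of 7 rose between E and D and 5 of 8 between F and E, with 0 falls. The thaumatin-like genes were too scarce to test, at up to 7.42 pooled CPM in the strains.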

How the data were processed

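CEL-Seq, which sequences the 3' ends of transcripts, was run on 140 strain libraries and 21 repeats. The values are raw counts per gene as deposited by the authors. Base calls came from CASAVA 1.8 and alignment from Bowtie2 2.1.0, per the submitters' processing notes. For counter, genome build, annotation and strand the sources used here give nothing. Rows without a gene were dropped. In the repeats, reads listed as not aligned were 38.8% to 70.2% and those in no feature 17.8% to 47.7%. A further 15 columns of per-sample values were not used.

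Sequence names were matched to RefSeq locus tags (20063 of 20687 matched). edgeR 4.0.16 (R 4.3.3, limma 3.58.1) fitted quasi-likelihood models with TMM scaling and its own expression filter over all genes. Calls needed a Benjamini-Hochberg adjusted p under 0.05 and a 2-fold change. DESeq2 1.42.0, other scalings and filters, a block for strain or repeat number, and left-out libraries were alternatives. On simulated data the strain test called somewhat more unchanged genes than its threshold allows. Strain numbers pair the libraries, since each strain is 1 line: same-strain libraries deviated together with a median correlation of 0.097, against -0.010 for different strains, and 202 of 420 pairs exceeded 0.1. No 2 libraries were identical. Genes named by rule were every lectin tested between adjacent stages of the strains; in the repeats, up to 5 called rises and 5 called falls per comparison with a mean of at least 50 CPM at the higher time point; the 4 smallest p of the strain effect; and 2 genes per other list. Further members were named after their values were seen. The members and gene lists were chosen with earlier results of these data known.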

Additional observations from a re-analysis of the deposited data

How the results depend on the processing

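The filter on low counts moved the counts of called lectins most. With no filter the strains gave 11 of 78, 13 of 92, 5 of 87, 27 of 112, 47 of 145 and 32 of 158 lectins tested over the 6 comparisons in order of stage, against 26.1%, 29.5%, 14%, 34.3%, 32% and 17.7% of all genes, so the first 4 lay below the background. A filter of 20 counts gave 4 between 60 and 0 min, 4 between 270 and 180 min, 13 between 440 and 270 min, 36 between 650 and 440 min and 26 between 830 and 650 min. A stage effect was called for 103 of 181 lectins with no filter (78.2% of genes) and 63 of 64 with 20 counts (97.1%), and a strain effect for 20 of 181 (29.9%) and 26 of 64 (45%). In the repeats no filter gave 7 of 79 between B and A, 20 of 107 between E and D, 35 of 130 between F and E and 17 of 129 between G and F, against 23.3%, 32.9%, 29.6% and 11.4% of genes. The filter of 20 counts gave 9 of 16, 26 of 35 and 15 of 42 in the last 3 of these, against 47.3%, 44.5% and 19.4%. An effect of time point was called for 71 of 166 (70%) and 46 of 47 (94.2%). These settings test more genes. Without the 8 libraries listed on a sheet of reruns, 1 of 1 lectin tested was called between 650 and 440 min, against 492 of 1106 genes. The first 6 strains alone gave 1 call among 4 lectins tested between 60 and 0 min, against 1115 of 3198 genes. They gave 0 between 650 and 440 min, where no lectin could be tested, and 4 of 4 between 830 and 650 min, against 310 of 1129 genes. The strain effect was called for 0 lectins in the first 6 and 0 in the last 14. Without strain 550 the strain effect of clec-87 was not called (adjusted p = 0.0883). These were chosen after the data were seen, and the cause was not tested. Without clec-87 the summed share was 0.266% and 0.337% in the strains at 0 and 60 min and 0.225% and 0.262% in the repeats at A and B. With clec-87 kept, the median share over the repeat libraries at G was 0.240%. With at least 50 counts, 5 mid-course and 33 late genes were detected. Leaving out 1 repeat library gave 2 to 3 calls between B and A, 5 to 5 between C and B, 1 to 2 between D and C, 4 to 7 between E and D, 13 to 19 between F and E and 4 to 10 between G and F, and 19 to 24 effects of time point. The number tested moved too, and between F and E these were 13 of 16 lectins (2753 of 6038 genes) to 19 of 22 (3282 of 6783 genes). With repeat number as a block the repeats gave 2, 5, 3, 5, 12 and 8 calls, adding clec-50 and clec-85 between G and F. The lectins tested were 5, 5, 3, 7, 15 and 17. Of all genes 1910 of 4466, 1362 of 2891, 580 of 3198, 2955 of 6247, 2649 of 5709 and 1077 of 4798 were called. Repeat numbers did not pair the libraries, with 4 of 63 pairs above a correlation of 0.1. With strain as a block the main counts in the strains stayed at 0, 5, 1, 2, 2 and 2. Of 69 comparisons of single members, 8 changed sign under some alternative, and 0 of these 8 were called under any. Depth limits the scarce members, since 117 of 253 had 1 to 19 counts.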
